A study of Mus musculus with 15 samples.

Results

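Nuclear genes for the respiratory chain and ATP synthase were followed across DOCK8-deficient and DOCK8-sufficient mouse regulatory T (Treg) cells, with and without activation. Members were chosen by gene symbol: the Ndufa, Ndufb, Ndufc, Ndufs and Ndufv genes with Ndufa restricted to numbered subunits, the 4 Sdh genes, the Uqcr, Cox4 to Cox8 and Atp5 families, Cyc1 and Cycs, with symbols ending in -ps left out. This gave 89 members of 37740 genes listed in any library. Complex I had 38 members, complex II 4, complex III 9, complex IV 20 and ATP synthase (complex V) 17, and cytochrome c itself was the remaining 1. The complex I members Ndufa11b, Ndufb4c and Ndufs6b are annotated as processed pseudogenes but lack -ps in their symbols, so the rule kept them. Of these only Ndufb4c was among the members tested. Ndufa4 and Ndufa4l2, once counted as complex I subunits, were placed in complex IV.

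Cells were sorted from the spleens and lymph nodes of C57BL/6 females of the genotype Foxp3YFP-Cre/+ Dock8flox/flox, so all cells carried the floxed Dock8 alleles. Cre is expressed from the Foxp3 gene on 1 X chromosome, and X inactivation leaves each such mouse with both kinds of Treg cell. The YFP+ cells express Cre and lack DOCK8 (KO), and the YFP- cells do not express it (WT). CD25+CD39+ cells were cultured for 16 h with beads carrying anti-CD3+CD28 antibodies, at 1 bead for each cell, or left unstimulated, and Smart-Seq2 libraries were made. The groups were KO with beads (n = 2), WT with beads (n = 3), unstimulated KO (n = 6) and unstimulated WT (n = 4). The labels give no ages and do not tie the libraries to separate mice, so p-values cover the spread between libraries, which may be technical.

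The respiratory chain passes electrons from NADH and succinate through complexes I and II to ubiquinone, then through complex III and cytochrome c to complex IV, which reduces oxygen. Proton pumping by complexes I, III and IV drives complex V, which makes ATP. Each complex but II joins nuclear-encoded subunits to a few encoded by mitochondrial DNA. T cells enlarge their mitochondrial capacity on activation, and Treg cells are known for a strong reliance on oxidative metabolism.

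Dock8 was 5.82 to 7.90 TPM (transcript abundance corrected for length and scaled to a fixed library total) in KO cells with beads, against 8.71 to 10.1 TPM in WT cells with beads, a log2 difference of -0.39 (exact permutation test, p = 0.1, the smallest possible). Without beads it was 6.70 to 11.9 TPM in KO cells, against 9.15 to 22.0 TPM in WT cells (log2 difference -0.67, two-sided exact permutation test, p = 0.019), but under scaling to abundant genes the difference was -0.33 (exact permutation p = 0.119) and without WT library 3 it was -0.46 (exact permutation p = 0.0714). The 8 Treg and T cell markers summed to 1360 to 1470, 1320 to 1350, 337 to 522 and 502 to 861 TPM in KO with beads, WT with beads, unstimulated KO and unstimulated WT cells, and all 8 were detected in every group. Markers of CD8 T and NK, B, myeloid and erythroid cells summed to at most 69.2, 26.6, 7.09 and 28.3 TPM in any library. A set of 11 predicted genes made of repeat sequence held 12.2% and 18.8% of TPM in KO libraries with beads, 7.89% to 14.1% in WT libraries with beads, 25.3% to 49.0% in unstimulated KO libraries and 15% to 35.2% in unstimulated WT libraries. Percentages of TPM, here and below, are of the summed TPM of genes listed in every library, which was 816799 to 924165 per library. In bulk RNA, fewer cells of a type and less RNA per cell cannot be told apart.

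Of the 89 members, 84 were listed in every library, and all 84 passed the filter on low values. Cox7b2, Cox8b, Cox8c and Ndufs6b were listed for unstimulated libraries alone and Ndufa11b for bead libraries alone, and these 5 were not tested. In all, 78 of the 84 averaged at least 20 TPM in a group, and genes at that level (5937 in all, called abundant here) served for comparison. None of the 37 mitochondrially encoded genes of the annotation was listed, so the mitochondrially encoded subunits of complexes I, III, IV and V were not analysed here.

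Together the members took up far more of the transcriptome after bead treatment. Their summed level was 16010 and 19260 TPM in the KO libraries with beads and 20350, 22170 and 22270 TPM in the WT libraries with beads. It was 2883, 3139, 3210, 3418, 4407 and 5271 TPM in unstimulated KO libraries and 4615, 5931, 7157 and 7628 TPM in unstimulated WT libraries. Every bead library stood above every unstimulated library of either genotype, and both KO libraries with beads lay below all 3 WT libraries with beads. With the repeat-derived genes taken out of the total, the members held 2.34% and 2.65% of TPM in KO cells with beads, 2.85% to 3.02% in WT cells with beads, 0.515% to 0.905% in unstimulated KO cells and 0.796% to 1.35% in unstimulated WT cells.

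**Figure D1:**
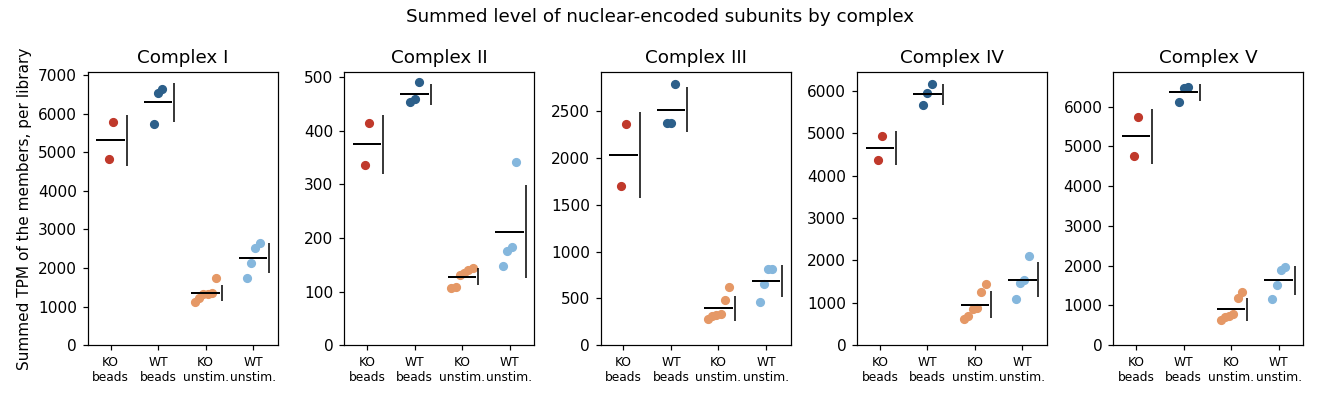
Summed TPM of the members of each complex (y axis, linear, from 0) in each library, by group on the x axis; points are libraries, horizontal bars group means and vertical bars the SD. In complexes I, III, IV and V every bead library lies above every unstimulated library, and the KO libraries with beads reach 4839 and 5785 TPM for complex I, against 5727 to 6645 TPM in WT libraries with beads.

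The makeup of the sum also differed with beads. Complex V subunits made up 29.7% and 29.8% of the members' summed TPM in KO cells with beads and 29.0% to 30% in WT cells with beads, against 21.8% to 27.1% in unstimulated KO cells and 24.7% to 27.4% in unstimulated WT cells. Complex I made up 30% and 30.2% in KO cells with beads and 28.1% to 30% in WT cells with beads, against 30.8% to 42.0% in unstimulated KO cells and 34.6% to 38.0% in unstimulated WT cells. For both complexes the bead libraries did not overlap the unstimulated ones, and no test was made on these shares. Complex III stayed within 9.22% to 12.5% in all 15 libraries.

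Bead treatment was tested within each genotype by limma on log2(TPM + 1), with p-values adjusted over all 29989 genes tested. In KO cells 68 of 84 members rose with beads and none fell (81.0% higher; over all genes tested 5.95% were called higher, and among abundant genes 26.6%). In WT cells 55 of 84 rose and none fell (65.5%; 4.60% of all genes tested and 20.5% of abundant genes were called higher). All 55 members called in WT cells were also called in KO cells, 13 were called in KO cells alone and 16 in neither. The median member difference was 2.35 in KO cells, against 0.74 for abundant genes and -0.23 for all genes tested, and 1.72 in WT cells, against 0.19 and -0.44.

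The KO count rests on 2 bead libraries. Without KO library 5 with beads 23 members were called, without KO library 4 with beads 37, and without the 4 unstimulated KO libraries with over 35% of TPM in repeat-derived genes 44, all higher. With unstimulated WT library 2, also above 35%, left out as well, 57 of 82 members tested were called higher, as were 998 of all 28098 genes tested. Scaling on 788 genes that averaged at least 50 TPM in every group and were never at 0, with the members left out, gave 60 members called higher in KO cells and 59 in WT cells, with medians of 1.94 and 1.76. That scaling, called scaling to abundant genes below, put the median of all genes tested at -0.43 in KO cells and -0.41 in WT cells, and it changed the split of all calls in KO cells to 1352 higher of 2956, against 1785 higher of 2431 unscaled. In WT cells the split was 1535 higher of 3144 scaled, against 1378 higher of 3366 unscaled. The bead and unstimulated tables list different sets of genes (31785 and 36904), so any difference in how the bead and unstimulated sets were processed cannot be told apart from the beads.

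**Figure D2:**
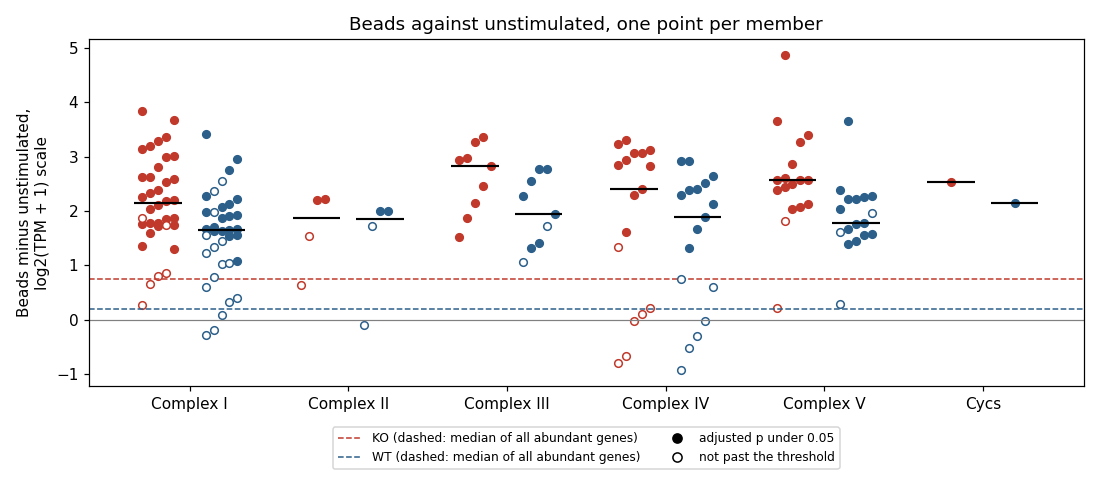
Log2 difference between bead-treated and unstimulated cells (y axis, log2(TPM + 1) scale) for each of the 84 members tested, by complex on the x axis, with KO left and WT right; filled points have an adjusted p under 0.05, black bars are complex medians and dashed lines the medians of abundant genes. Complex III shows the highest KO median, 2.82, and the lowest points are Cox7a1 in KO cells, at -0.80, and Cox7a2l in WT cells, at -0.93.

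The rise ran through all complexes. In complex I, 30 of 36 members rose in KO cells and 20 of 36 in WT cells, with medians of 2.14 and 1.64. Complex II gave 2 of 4 in each genotype. In complex III, 9 of 9 members rose in KO cells and 7 of 9 in WT cells (medians 2.82 and 1.94), in complex IV 11 of 17 in each (2.41 and 1.89), and in complex V 15 of 17 and 14 of 17 (2.56 and 1.78). Cycs rose in both.

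Transcript length differed between the members and other genes. The members' annotated transcripts had a median length of 681.5 bases, against 1301 bases for other abundant genes. Among abundant genes under 1000 bases, the 58 members had median bead differences of 2.54 in KO cells and 1.92 in WT cells, and the 2345 other genes had medians of 0.74 and 0.12. Between 1000 and 2000 bases the 16 members had medians of 2.13 and 1.56, and the 1681 other genes 1.03 and 0.57. In both ranges of length, then, the members' medians were above those of other genes.

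The member with the largest bead difference in both genotypes was Atp5g1, at 11:96068852-96075670 on the minus strand (GRCm38), which encodes subunit c, the rotating ring of ATP synthase. Mammals have 3 genes, Atp5g1, Atp5g2 and Atp5g3, whose mature c subunits are identical and whose import sequences differ. Sequence before the annotated starts of these genes, and of Cycs, is shown because Atp5g1 had that difference and the other paralogs and the electron carrier are set beside it below. The letters are from the RefSeq promoter table (GRCm38.p6, 250 bases before to 50 after a start, 1 window per symbol), on the gene's strand, and end before the RefSeq start, or earlier where a GENCODE vM21 transcript of the gene begins earlier. Capitals mark the letters CGCATGCG, the core of the element bound by NRF1, a regulator of respiratory chain genes. For Atp5g2 only the 30 bases around the match are given, since annotated transcripts overlap its window.

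Atp5g1, chr11:96075671-96075881, minus strand: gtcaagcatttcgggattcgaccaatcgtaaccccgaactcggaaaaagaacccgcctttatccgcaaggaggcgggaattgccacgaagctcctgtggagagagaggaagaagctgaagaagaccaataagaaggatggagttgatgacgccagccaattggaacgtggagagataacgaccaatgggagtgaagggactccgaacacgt
Atp5g2, chr15:102671070-102671099, minus strand: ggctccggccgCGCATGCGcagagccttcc
Atp5g3, chr2:73911327-73911576, minus strand: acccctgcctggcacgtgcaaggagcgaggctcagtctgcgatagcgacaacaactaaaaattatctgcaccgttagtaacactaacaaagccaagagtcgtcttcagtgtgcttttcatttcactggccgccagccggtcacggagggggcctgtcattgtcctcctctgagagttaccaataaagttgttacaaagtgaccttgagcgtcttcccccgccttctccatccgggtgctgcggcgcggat
Cycs, chr6:50566570-50566819, minus strand: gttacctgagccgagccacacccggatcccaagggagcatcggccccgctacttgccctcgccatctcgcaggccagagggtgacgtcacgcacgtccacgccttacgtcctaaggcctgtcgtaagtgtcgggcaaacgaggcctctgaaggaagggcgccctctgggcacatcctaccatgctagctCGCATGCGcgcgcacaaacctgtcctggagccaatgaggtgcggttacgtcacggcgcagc

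The match began 41 bases before the annotated start of Atp5g2 and 61 bases before that of Cycs, and these letters are not in the windows of Atp5g1 and Atp5g3. Promoter windows were found by symbol for 65 of the 84 members. In 300-base windows, searched on both strands, CGCATGCG (a palindrome) was present in 9 of 65 members (13.8%), against 1.91% of all 27025 promoters and 4.81% of 3766 promoters of other abundant genes. The ETS letters CCGGAAGT, bound by GABP, were present in 5 of 65 members (7.69%), against 4% of all and 10.9% of abundant promoters. The YY1 letters AAGATGGCG were present in 6 of 65 members (9.23%), against 1.49% of all and 4.04% of abundant promoters. At least 1 of the 3 was present in 19 of 65 members (29.2%), against 7.04% of all and 18.5% of abundant promoters, and Uqcr11 held both the NRF1 and the ETS letters. A match is a description of the letters and says nothing of binding in these cells.

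Atp5g1 stood at 490 and 590 TPM in KO libraries with beads, and at 644, 713 and 750 TPM in WT libraries with beads. In unstimulated libraries it ranged from 6.74 to 41.4 TPM in KO cells (median 18.7) and stood at 36.8, 51.2, 68.4 and 71.6 TPM in WT cells. Bead and unstimulated libraries did not overlap in either genotype. The group mean was 25.3 times as high with beads as without in KO cells (log2 difference 4.87 ± 0.55 SE, limma adjusted p = 0.000129) and 12.3 times in WT cells (3.64 ± 0.51, limma adjusted p = 0.000677).

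Atp5g3 rose as well, to 294 and 392.3 TPM in KO cells and 490, 491 and 513 TPM in WT cells with beads, against 29.3 to 75.9 TPM (median 61.5) in unstimulated KO cells and 67.8, 78.2, 139 and 152 TPM in unstimulated WT cells. Its log2 differences were 2.56 ± 0.37 in KO cells (limma adjusted p = 0.000771) and 2.26 ± 0.35 in WT cells (limma adjusted p = 0.00131). Atp5g2 had 68.2 and 85.7 TPM in KO cells and 96.4, 113 and 132 TPM in WT cells with beads, against 5.77 to 56.9 TPM (median 24.6) in unstimulated KO cells and 25.4, 29.4, 37.9 and 59.5 TPM in unstimulated WT cells. Its libraries did not overlap either, but the differences, 1.82 ± 0.68 in KO cells and 1.62 ± 0.63 in WT cells, did not pass (limma adjusted p = 0.121 and 0.116). The WT difference passed when only the WT groups were fitted (limma adjusted p = 0.0183) and without the 4 KO libraries high in repeat-derived genes (limma adjusted p = 0.00673). The difference between the 3 paralogs was not tested.

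In the catalytic head and stalk of ATP synthase, Atp5b (subunit β, where ATP is made) had 597 and 725 TPM in KO cells and 801, 828.6 and 835 TPM in WT cells with beads. Unstimulated it had 83.2 to 170 TPM (median 96.7) in KO cells and 143, 170, 178 and 223 TPM in WT cells. It rose by 2.56 ± 0.31 on the log2 scale in KO cells (limma adjusted p = 0.00023) and by 2.21 ± 0.29 in WT cells (limma adjusted p = 0.000506). Atp5o, the stalk subunit that confers oligomycin sensitivity, rose by 2.85 ± 0.33 and 2.04 ± 0.31 in KO and WT cells, and Atp5j, coupling factor 6, by 2.04 ± 0.24 and 1.45 ± 0.23. Atp5s, at 3.67 to 4.64 TPM in group means, did not pass in either genotype, and with Atp5g2 made up the complex V members called in neither.

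**Figure D3:**
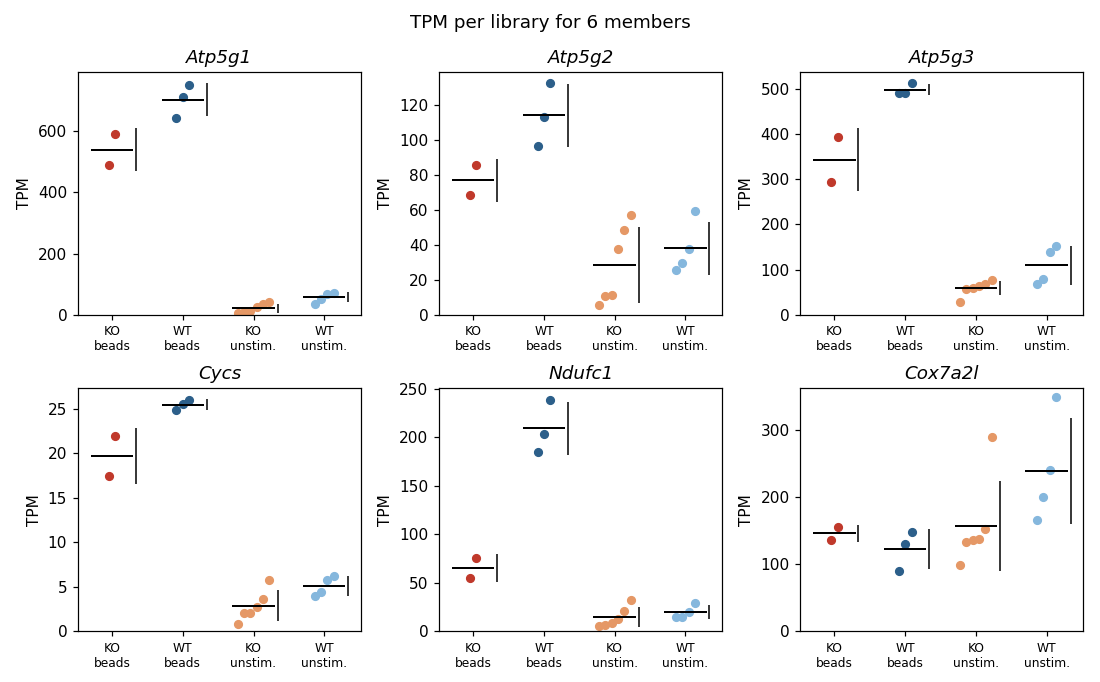
TPM (y axis, linear, from 0) of 6 members in each library, by group on the x axis; points are libraries, horizontal bars group means and vertical bars the SD. Atp5g1, Atp5g2, Atp5g3, Cycs and Ndufc1 stand higher in every bead library than in every unstimulated library. Cox7a2l was lower in all 3 WT libraries with beads, at 90.0 to 148 TPM, than in the 4 unstimulated WT libraries, at 166 to 349 TPM.

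Cycs, the mobile electron carrier between complexes III and IV, was low throughout. It had 17.4 and 21.9 TPM in KO cells and 24.8, 25.5 and 26.0 TPM in WT cells with beads, against 0.787 to 5.77 TPM (median 2.41) in unstimulated KO cells and 3.89, 4.35, 5.77 and 6.17 TPM in unstimulated WT cells. It rose by 2.54 ± 0.42 in KO cells (limma adjusted p = 0.00182, and 0.064 without KO library 5 with beads) and by 2.15 ± 0.39 in WT cells (limma adjusted p = 0.00344). Its partner Cyc1, cytochrome c1 of complex III, stood above it in every library, at 17.0 to 258 TPM, a scale corrected for length.

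In complex III, Cyc1 had 180 and 209 TPM in KO cells and 214, 233 and 258 TPM in WT cells with beads, against 17.0 to 41.6 TPM (median 28.4) in unstimulated KO cells and 31.1, 32.5, 37.4 and 62.4 TPM in unstimulated WT cells. Its log2 differences were 2.82 ± 0.37 in KO cells (limma adjusted p = 0.000329) and 2.55 ± 0.34 in WT cells (limma adjusted p = 0.000548). Uqcr11, a small accessory subunit, rose by 2.94 ± 0.46 in KO cells, not past the threshold without KO library 5 with beads (limma adjusted p = 0.0652), and by 2.78 ± 0.43 in WT cells. Uqcrfs1, the Rieske iron-sulphur protein, rose by 2.45 ± 0.37 in KO cells, likewise lost without that library (limma adjusted p = 0.0513), and by 1.94 ± 0.35 in WT cells. Uqcrh, the hinge protein and the most abundant member of complex III, had smaller differences of 1.53 ± 0.40 and 1.32 ± 0.38, both past the threshold. The WT call was lost without any 1 of the WT libraries with beads (limma adjusted p = 0.0888 to 0.109). It was also lost without unstimulated WT library 1 or 2 (limma adjusted p = 0.091 and 0.0933). Quantile normalization (limma adjusted p = 0.0781) and rescaling without repeat-derived genes (limma adjusted p = 0.0563) removed it too. The KO call did not hold without KO library 4 or 5 with beads (differences of 1.75 and 1.31). Among other alternatives, it was lost after scaling to abundant genes (1.11, limma adjusted p = 0.0547) and without the KO libraries high in repeat-derived genes (0.94, limma adjusted p = 0.219).

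In complex IV the general isoforms rose, and the isoforms of other tissues that were tested had at most 7.35 TPM in any library. Cox5a had 294 and 322 TPM in KO cells and 390, 506 and 510 TPM in WT cells with beads, against 27.1 to 53.9 TPM in unstimulated KO cells and 38.8, 47.3, 61.6 and 119 TPM in unstimulated WT cells. The log2 differences of Cox5a were 3.06 ± 0.39 in KO cells (limma adjusted p = 0.00026) and 2.92 ± 0.36 in WT cells (limma adjusted p = 0.000311). Ndufa4 rose by 3.22 ± 0.40 and 2.64 ± 0.37, and Cox8a by 2.41 ± 0.30 and 1.89 ± 0.28. Cox4i1, the general form of subunit 4 and with Cox5b the most abundant member of the complex, rose less, by 1.62 ± 0.37 in KO cells and 1.33 ± 0.34 in WT cells, and these calls were lost without any 1 bead library of the genotype (limma adjusted p = 0.0649 to 0.154).

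Cox4i2, the lung and hypoxia form of subunit 4, had at most 3.94 TPM in any library, against at least 94.2 TPM for Cox4i1. Cox6a2 and Cox7a1, the heart and muscle forms, had at most 5.43 and 4.98 TPM, Cox6b2, the testis form, at most 7.35 TPM, and Ndufa4l2, a hypoxia-induced relative of Ndufa4, at most 4.18 TPM. Each was at 0 TPM in some libraries of both genotypes, and none was called. The other tissue forms, Cox7b2, Cox8b and Cox8c, were listed for unstimulated libraries only, at up to 10.3, 9.01 and 11.2 TPM.

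Cox7a2l, named after its values were seen, was the member with the most negative bead difference in WT cells. This gene, at 17:83501918-83517330 on the minus strand, encodes a protein described as joining complexes III and IV in supercomplexes. Whether it does so in cells of this strain was not tested. It had 136 and 155 TPM in KO cells and 90.0, 130 and 148 TPM in WT cells with beads, against 97.8 to 289 TPM (median 136) in unstimulated KO cells and 166, 200, 240 and 349 TPM in unstimulated WT cells. WT libraries did not overlap, KO libraries did. The log2 difference was -0.03 ± 0.37 in KO cells and -0.93 ± 0.35 in WT cells (limma adjusted p = 0.979 and 0.104), and the WT value passed under quantile normalization (-1.25, limma adjusted p = 0.0445) and after rescaling without repeat-derived genes (-1.18, limma adjusted p = 0.0377). Its ordinary counterpart in complex IV, Cox7a2, rose by 2.82 ± 0.41 and 2.30 ± 0.39.

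Complex II, which also works in the citric acid cycle, was split. Sdhb, its iron-sulphur subunit, had 153 and 193 TPM in KO cells and 225, 236 and 241 TPM in WT cells with beads, against 24.6 to 47.4 TPM in unstimulated KO cells and 35.1, 37.0, 74.8 and 111 TPM in unstimulated WT cells. It rose by 2.21 ± 0.39 in KO cells (limma adjusted p = 0.0029, and 0.0861 without KO library 5 with beads) and by 2.01 ± 0.37 in WT cells (limma adjusted p = 0.00341). Sdha, the flavoprotein that oxidises succinate, had 92.9 and 97.9 TPM in KO cells and 80.2, 84.8 and 115 TPM in WT cells with beads, against 36.7 to 87.2 TPM in unstimulated KO cells and 57.2, 95.6, 98.7 and 176 TPM in unstimulated WT cells, and its differences of 0.65 ± 0.39 and -0.10 ± 0.37 did not pass. Of the membrane anchors, Sdhd rose by 2.20 ± 0.55 in KO cells and 2.00 ± 0.51 in WT cells, and Sdhc, at 1.54 ± 0.61 and 1.72 ± 0.57, did not pass, but did without unstimulated KO library 1, which had 28.2 TPM (limma adjusted p = 0.0215 and 0.0177). The Sdhd calls did not hold when either KO library with beads, or any of the WT libraries with beads, was left out (limma adjusted p = 0.0628 to 0.282).

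In complex I, Ndufa12, an accessory subunit, had 255 and 334 TPM in KO cells and 321, 355 and 370 TPM in WT cells with beads, against 18.4 to 44.6 TPM in unstimulated KO cells and 31.1, 34.7, 47.7 and 73.5 TPM in unstimulated WT cells. It rose by 3.28 ± 0.41 (limma adjusted p = 0.00026) and 2.95 ± 0.39 (limma adjusted p = 0.000464). Ndufb6 and Ndufb2, accessory subunits of the membrane arm, rose by 3.19 ± 0.42 and 2.98 ± 0.37 in KO cells and by 2.75 ± 0.39 and 1.98 ± 0.35 in WT cells. Ndufa1, the most abundant member of complex I, rose by 2.59 ± 0.34 and 1.64 ± 0.32, and Ndufs7, a core iron-sulphur subunit and the next most abundant, did not pass (0.86 ± 0.27 and 0.60 ± 0.25), though the KO difference did without the unnumbered unstimulated KO library (limma adjusted p = 0.03).

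The complex I members called in neither genotype were Ndufa10, Ndufb10, Ndufb4, Ndufs1, Ndufs7 and Ndufv3, of which all but Ndufs7 were named after their values were seen. Ndufv3, an accessory subunit of the NADH-binding module, had 124 and 134 TPM in KO cells and 97.2, 113 and 132 TPM in WT cells with beads, against 64.9 to 158 TPM in unstimulated KO cells and 108, 132, 140 and 140 TPM in unstimulated WT cells. Ndufb4 and Ndufb4c, annotated as a processed pseudogene, share sequence: all 366 of the 25-base words in the annotated Ndufb4c transcript are also in Ndufb4 transcripts, so reads can be split between them. Ndufb4c had 147 and 218 TPM in KO cells and 161, 188 and 198 TPM in WT cells with beads, and Ndufb4 16.8 and 34.6 TPM and 17.97, 29.4 and 34.3 TPM, so the values of both are uncertain.

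The genotype comparison asked whether loss of DOCK8 went with other levels of these genes. All KO cells were YFP+ and all WT cells YFP-. Loss of DOCK8 therefore cannot be told apart from expression of Cre and YFP, or from the sort on YFP. With beads no member was called between KO and WT cells (1 gene of 29989 was called, 0.00333%). An unadjusted limma p under 0.05 was found for 1 of 84 members, against 868 of 29989 genes tested and 294 of 5937 abundant genes. The members' median difference was -0.26, against 0.00 for abundant genes and 0.13 for all genes tested, and 69 of 84 were below 0. Under scaling to abundant genes the median was -0.37 and 75 were below 0. Both KO libraries stood below all 3 WT libraries for 39 of 84 members. This was the case for 8.02% of all genes tested and 18.3% of abundant genes. By complex, the count was 11 of 36 in I, 2 of 4 in II, 5 of 9 in III, 9 of 17 in IV and 11 of 17 in V, and Cycs was among them. The repeat-derived share, 12.2% and 18.8% in these KO libraries and 7.89% to 14.1% in the WT ones, overlapped, and its part in the difference was not tested. With beads the KO libraries bore the title numbers 4 and 5 and the WT libraries 1, 2 and 3. Genotype and title number therefore cannot be told apart among the bead libraries.

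**Figure D4:**
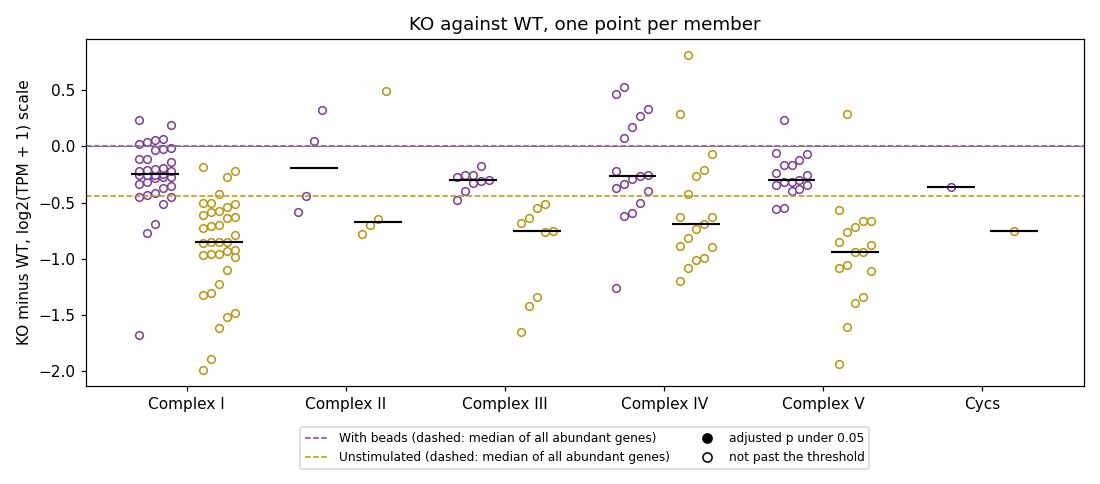
Log2 difference between KO and WT cells (y axis, log2(TPM + 1) scale) for each of the 84 members tested, by complex on the x axis, with bead-treated cells left and unstimulated cells right; black bars are complex medians, dashed lines the medians of abundant genes, and open points have an adjusted p of 0.05 or more. All points are open, most lie below 0, and Ndufc1 is the lowest point among bead-treated cells, at -1.67.

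Ndufc1, a small membrane-arm subunit of complex I at 3:51404677-51408988 on the minus strand, had the most negative difference with beads. It had 55.2 and 75.3 TPM in KO cells, against 185, 204 and 239 TPM in WT cells, a ratio of means of 0.312. The log2 difference was -1.67 ± 0.60 (unadjusted p = 0.013 and adjusted p = 1 in limma's fit over all genes). Unstimulated, the libraries overlapped, with 5.21 to 31.6 TPM in KO cells and 14.1, 14.5, 20.1 and 29.1 TPM in WT cells. It rose with beads in both, by 2.38 ± 0.54 in KO cells (limma adjusted p = 0.0123, lost without KO library 4 or 5 with beads, adjusted p = 0.0877 and 0.183) and by 3.41 ± 0.50 in WT cells (limma adjusted p = 0.000948), and the difference between the responses, -1.03 ± 0.73, did not pass (limma adjusted p = 0.999).

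Without beads no member was called between KO and WT cells (22 genes, 0.0734%, were called), and 48 members had an unadjusted limma p under 0.05, all lower in KO, as did 1575 of 5937 abundant genes, 1400 of them lower. In all, 80 of 84 members were below 0, with a median of -0.77, against -0.44 for abundant genes and -0.11 for all genes tested. Scaling to abundant genes raised the median of all genes by 0.22 and left the members at -0.43 and abundant genes at -0.11, with 76 members below 0. All 6 KO libraries lay below all 4 WT libraries for 8 of 84 members, Ndufb2, Ndufb8, Ndufb9, Ndufb11, Ndufv1, Atp5f1, Atp5j and Atp5k (1.27% of all genes tested and 3.42% of abundant genes). These genes were picked by their values. The repeat-derived share was 25.3% to 49.0% in KO and 15% to 35.2% in WT libraries (difference 11.1 percentage points, exact permutation test, p = 0.0905), and its part in the difference was not tested. Without the 4 KO libraries above 35% the members' median was -0.41. WT library 2, at 35.2%, was kept there, and without it as well the median was -0.57 over 82 members tested.

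Ndufb9, an accessory subunit of complex I at 15:58933756-58939488, had the smallest p of the members in this comparison. It had 11.2, 20.2, 21.1, 33.0, 35.2 and 53.9 TPM in unstimulated KO libraries, against 59.8, 68.3, 88.5 and 123 TPM in WT libraries. Its log2 difference was -1.62 ± 0.36 (limma adjusted p = 0.123). Atp5c1, subunit γ of the ATP synthase stalk, had 19.99 to 86.7 TPM in KO cells, against 76.7, 97.2, 108 and 121 TPM in WT cells (-1.39 ± 0.34, limma adjusted p = 0.151). Without the unnumbered KO library both passed (limma adjusted p = 0.038 and 0.0354). In complex III, Uqcr10 had a difference of -1.65 ± 0.45, Uqcrb of -1.42 ± 0.43 and Uqcrc2, a core protein, of -1.34 ± 0.42, none past the threshold.

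The bead responses did not differ detectably between genotypes. No member was called for the difference of responses, KO minus WT (1 gene, 0.00333%, was called), and none had an unadjusted limma p under 0.05. Of 29989 genes tested 1247 had such a p, and of 5937 abundant genes 405. The members' median was 0.51, against 0.47 for abundant genes and 0.27 for all genes tested, and 78 of 84 were above 0. Under scaling to abundant genes the median was 0.058 and 47 of 84 were above 0. For Atp5g1 the difference of responses was 1.23 ± 0.75 on the log2 scale (limma adjusted p = 0.999). The design holds 2 KO libraries with beads, and a p over the threshold does not show that the responses were alike.

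Genes that serve the same machinery were counted in 3 further lists. Of 51 assembly factors tested, 7 rose with beads in KO cells and none fell, and 6 rose and 1 fell in WT cells. That is 13.7% higher in KO cells and 11.8% in WT cells, below the 26.6% and 20.5% of abundant genes and above the 5.95% and 4.60% of all genes tested. Under scaling to abundant genes 5 rose and 1 fell in KO cells and 7 rose and 1 fell in WT cells. Uqcc2, an assembly factor of complex III, averaged 96.0 TPM in KO cells with beads against 16.9 TPM unstimulated (2.66 ± 0.54, limma adjusted p = 0.00651) and 134.9 against 24.0 TPM in WT cells (2.51 ± 0.50, limma adjusted p = 0.0054). Acad9, which helps assemble complex I, fell in WT cells to 67.7 TPM with beads, against 198.2 TPM unstimulated (-1.53 ± 0.28, limma adjusted p = 0.00354). The median of the list was 1.15 in KO cells and 0.66 in WT cells.

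Of 16 citric acid cycle genes, 12 rose in KO cells (75%, against 26.6% of abundant genes) and 7 in WT cells (43.8%, against 20.5%), and none fell. Under scaling to abundant genes 9 rose in KO cells and 10 in WT cells. Mdh2, mitochondrial malate dehydrogenase, averaged 299.1 TPM with beads against 31.7 TPM unstimulated in KO cells (3.24 ± 0.31, limma adjusted p = 4.28e-05) and 324 against 67.9 TPM in WT cells (2.25 ± 0.29, limma adjusted p = 0.00041). Of 19 regulators of mitochondrial biogenesis and ATP synthase, 2 rose in each genotype (10.5%, below the shares of abundant genes), Atpif1, the inhibitor of ATP synthase, and Ssbp1, which binds single-stranded mitochondrial DNA. The remaining 17 were not called in either. Between KO and WT cells no gene of the 3 lists was called by limma, with or without beads. Unstimulated, 10 of 51 assembly factors, 9 of 16 citric acid cycle genes and 2 of 19 regulators had an unadjusted limma p under 0.05, all lower in KO, and with beads none had. Over all genes tested 3386 of 29989 had such a p unstimulated, 2666 of them lower in KO, and 868 had with beads.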

How the data were processed

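The authors deposited 1 table per library with Ensembl gene identifiers and TPM values. The submitters' processing notes name STAR, Salmon, DESeq2 and mm10 without versions, and the role of each is not given in the sources used here. TPM hold no read depth, which is therefore unknown, and count models were not used. Symbols, coordinates and transcript lengths came from GENCODE vM21 (GRCm38).

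Of 30949 genes listed in every library, the 29989 that reached 1 TPM in 2 or more libraries were fitted as log2(TPM + 1). The fit used limma 3.58.1 under R 4.3.3 with a mean for each group, a variance trend and 11 residual degrees of freedom. Contrasts were adjusted by the Benjamini-Hochberg method over all genes and called at an adjusted p under 0.05. Differences are on that log2 scale, which understates changes of low genes; ± is the SE. Abundant genes average at least 20 TPM in a group. Dock8 and the repeat-derived share were tested by exact permutation over libraries. The fit was tested on simulated data.

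The members and gene lists were chosen with earlier results of these data known. Members named were, per complex, the 2 most abundant, up to 3 with the smallest p in each of the 2 bead contrasts and in unstimulated KO against WT, and the tissue isoforms and duplicated genes; others named were chosen after their values were seen. Alternatives were other pseudocounts (0.1 and 5), filters, scalings, fits and left-out libraries; bins of transcript length and the alternatives for Dock8 were added after seeing the data, as were leaving out the libraries of both genotypes high in repeat-derived genes and a block over numbered libraries.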

Additional observations from a re-analysis of the deposited data

Results flagged for a closer look

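In 4 or more libraries of a group, a library far from the rest was looked for by the gap to its nearest neighbour over the group's range on the log2(TPM + 1) scale. Chance passes about 1 group in 20, and 5 of 84 members passed in unstimulated KO and 5 of 84 in unstimulated WT cells. Among the members named, Atp5g3 passed in unstimulated KO cells (0.687), where library 5 had 29.3 TPM and the others 56.5 to 75.9 TPM. In unstimulated WT cells Sdhd passed (0.872), with 8.38 TPM in library 2 and 40.9 to 51.1 TPM in the others, and so did Cox6a1 (0.97), with 113.7 TPM in the unnumbered library and 65.5 to 66.7 TPM in the others. Ndufa4l2 in unstimulated KO cells, and Cox6a2 and Cox7a1 in unstimulated WT cells, reached 1 because a single library was above 0, at 4.18, 1.31 and 3.12 TPM.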

How the results depend on the processing

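Under the alternatives 277 summary values were classed as unchanged, 13 as moved and 5 as weaker, and none changed sign. A median counted as unchanged if it shifted by less than 0.348, the pooled SD of the members' median between libraries. Many unchanged values are genotype or response-difference counts of 0, or come from leaving out a library outside the comparison. Members called higher in KO cells with beads numbered 44 without the KO libraries high in repeat-derived genes, 41 with the title number as a replicate block over the numbered libraries alone, and 23 (without KO library 5 with beads) to 69 with 1 library left out, where a lone bead library is assumed to vary like the other groups; in WT cells the range was 38 to 61. Between unstimulated KO and WT cells 2 members were called without the unnumbered KO library and none without any other. The KO bead median was 1.94 after scaling to abundant genes, 1.88 after quantile normalization, 2.00 after rescaling without repeat-derived genes 1.92 without the KO libraries high in them and 1.93 without those of either genotype. The median difference of responses was 0.058 after that scaling and 0.15 without those libraries, and the unstimulated genotype median -0.41 without them. The unstimulated Dock8 difference lost its call after scaling (-0.33), after quantile normalization (-0.49) and without WT library 3. Its range with 1 library left out was -0.85 to -0.46. Without the KO libraries high in repeat-derived genes it was -0.49 (exact permutation p = 0.333). Without those of either genotype it was -0.68, where an exact permutation p cannot go below the 0.1 it gave. Both of these settings left too few libraries for any exact permutation p to pass, so neither can test the call. The causes were not tested. The leaving out of both genotypes' high libraries and the block over numbered libraries were chosen after seeing the data.

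Of 3240 values of named members under the alternatives, 96 lost their call and 39 gained one. These values include differences not called as reported, such as every unstimulated genotype difference, which had no call to lose. They also include alternatives that left out a library of a group outside the comparison. Without the KO libraries high in repeat-derived genes, the unstimulated genotype differences of Sdhc (-0.11), Uqcrh (0.072), Cox5b (0.080) and Atp5g2 (0.53) changed sign, none of them called, and without those of either genotype Sdhc (-0.13) and Atp5g2 (0.55) did. The Sdha bead difference in WT cells ran from -0.36 to 0.18 with 1 library left out. The Cox7a2l difference in KO cells, near 0, turned positive under either replicate block (0.018) and without KO library 4 with beads (0.06) or the unnumbered KO library (0.16, the highest; the lowest was -0.15). The labels do not say whether the title numbers pair the samples. Deviations from group means correlated at -0.037 to 0.055 over 11 same-numbered pairs and at 0.117 for the 2 unnumbered libraries. Over 68 other pairs they correlated at -0.163 to 0.1. Low correlations in groups this small cannot show that the libraries are unpaired. With the number as a replicate block, the unnumbered libraries sharing a level, 49 members were called higher in KO cells and 54 in WT cells, and none between genotypes, and over the numbered libraries 41 and 51, and none between genotypes. KO and WT libraries with beads shared no title number, so there the block linked the genotypes only through unstimulated libraries. Over all genes tested, calls ranged over the alternatives from 327 to 2087 higher with beads in KO cells (1785 as reported), 773 to 1714 in WT cells (1378), 1 to 67 between unstimulated genotypes (22), 0 to 15 between genotypes with beads (1) and 0 to 9 for the difference of responses (1).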
